A study of Rattus norvegicus with 14 samples.

Results

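Wk8, a rat cell line derived from a Wistar-Kyoto blastocyst, was compared with Fi1 and Fi2, lines derived from blastocysts of Fischer rats. These lines belong to a series on hypoblast stem cells, cells with features of the early primitive endoderm that were derived under culture conditions first used for bone marrow progenitors. The comparison holds 6 of the 14 arrays of the series, chosen by the labels for tissue and strain, and covers 3 of its 7 lines. Wk8 was labelled female, Fi1 male and Fi2 female, and each line was measured on arrays A and B. No treatment, passage or genetic change is named for any of them. The labels do not say whether arrays A and B of a line came from separate cultures, so tests over arrays measure a spread that may be technical. Wistar-Kyoto is represented by 1 line, so strain and line cannot be told apart. The bone marrow lines CL19 (female), 3C3 and RMAPC-1 (both labelled male), all from Fischer rats, served here to estimate how much lines of one kind differ, and the mesenchymal line RClone-2 only as a further level to read against.

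The hypoblast, or primitive endoderm, is the layer of the blastocyst that lies next to the fluid cavity. It is set apart from the pluripotent epiblast under fibroblast growth factor signalling and by GATA factors, and it gives rise to visceral endoderm, an absorptive epithelium around the embryo, and to parietal endoderm, which migrates and lays down a thick basement membrane rich in laminin and type IV collagen. Visceral endoderm takes up maternal protein through the receptors cubilin and megalin, which work together with the membrane anchor amnionless and the adaptor Dab2.

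The upstream sequences of 3 genes of this uptake system are shown because all 3 were lower in Wk8 on every array, as described further on. Amn encodes amnionless, Cubn cubilin and Lrp2 megalin. Each sequence gives the 250 bases before the annotated start, read 5′ to 3′ on the gene's strand from RefSeq's GRCr8 assembly, and 3 of 3 genes looked up were matched. Capitals mark GATAA, a form of the site that GATA factors recognise, and GGGCGG, the core of the site recognised by Sp1, each searched on both strands. Other forms of the GATA site, such as GATAG, were not searched, so unmarked bases may hold such a form.
Amn, chr6:136132317-136132566, plus strand: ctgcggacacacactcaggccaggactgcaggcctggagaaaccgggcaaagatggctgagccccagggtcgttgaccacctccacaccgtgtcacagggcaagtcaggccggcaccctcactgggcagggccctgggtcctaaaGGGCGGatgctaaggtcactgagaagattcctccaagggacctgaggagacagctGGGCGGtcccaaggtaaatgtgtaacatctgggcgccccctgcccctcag
Cubn, chr17:81501695-81501944, minus strand: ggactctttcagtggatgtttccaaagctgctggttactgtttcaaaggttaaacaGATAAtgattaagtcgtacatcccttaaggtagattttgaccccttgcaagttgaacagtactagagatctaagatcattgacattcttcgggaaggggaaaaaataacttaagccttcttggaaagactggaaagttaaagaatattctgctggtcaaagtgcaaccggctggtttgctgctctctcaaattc
Lrp2, chr3:74754536-74754785, minus strand: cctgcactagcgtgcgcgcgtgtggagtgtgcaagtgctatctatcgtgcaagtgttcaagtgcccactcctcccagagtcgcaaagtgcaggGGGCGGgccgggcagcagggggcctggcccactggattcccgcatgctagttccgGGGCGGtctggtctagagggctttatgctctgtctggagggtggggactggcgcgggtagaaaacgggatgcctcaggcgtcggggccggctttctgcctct
GATAA was found once in this stretch of Cubn and not in that of Amn or Lrp2, and 23.5% of 33465 upstream stretches of the same length held it. GGGCGG was found at 2 places in Amn and at 2 in Lrp2, and 30.5% of the stretches held it. In both of these the 2 matches lay on the gene's strand and 55 bases apart, at -105 and -50 from the start in Amn and at -157 and -102 in Lrp2. No test was made of this spacing, and a match is a description of the reference sequence of another rat strain, not of a bound site.

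Signals are given as log2 of the processed Cy3 intensity minus the 75th percentile of the same array, so that 0 is a bright probe and about -8 is background. On the 6 arrays 62.8% to 68.1% of spots were well above background, and the 75th percentile lay between 745.67 and 891.46 intensity units. Precision is limited by the number of lines and arrays. All A arrays lay on slide 1 and all B arrays on slide 3, with Fi1 always in position 1, Fi2 in position 2 and Wk8 in position 3, so line and slide position cannot be told apart. Y-linked genes were checked against the labels. Eif2s3y reached 1.82 and 1.60 in Fi1 and stayed between -8.79 and -8.27 on the arrays of Wk8 and Fi2, as their labels say. In 3C3, labelled male, it read -8.23 and -8.01, and in RMAPC-1, also labelled male, it read -7.05 on array A and 2.09 on array B. These bone marrow lines enter the estimate of spread and the levels read beside Wk8, not the differences, and counts of calls without each of them are given beside the main count.

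All 6 defining markers of primitive endoderm fixed in the design, Gata4, Gata6, Sox17, Sox7, Foxa2 and Pdgfra, were well above background on every array of the 3 blastocyst lines, and so were all 6 markers of parietal endoderm. The summed level of the primitive endoderm markers was 6.96 to 7.31 in Wk8 and 7.10 to 7.19 in the Fischer lines, so the ranges overlapped. The summed level of the parietal markers was 10.33 to 10.40 in Wk8 and 9.98 to 10.05 in the Fischer lines. For the 5 visceral endoderm markers it was 0.43 to 0.50 against 2.95 to 4.97, most of it from Amn. Markers of other cell types were also detected. Of the trophoblast markers on the array, 4 of 5 were well above background on both Wk8 and all Fischer arrays, of the mesenchymal 3 of 5 and of the neural 2 of 3. The members not above background on any of the 6 arrays were Elf5 of trophoblast, Thy1 and Prrx1 of mesenchyme and Pax6 of neural cells. Of 4 blood markers, 2 were well above background on both Wk8 arrays and 1 on all Fischer arrays. The summed level of the measured neural markers was 3.28 to 3.39 in Wk8 and 2.15 to 2.34 in the Fischer lines, of the trophoblast markers -2.17 to -1.89 against -1.78 to -1.12, of the mesenchymal -0.71 to -0.66 against -0.59 to -0.43, and of the blood markers -0.18 to -0.01 against -0.07 to 0.60. Their part in the differences below was not tested. All 5 endothelial markers were well above background in all 3 lines, with a summed level of 1.38 to 1.61 in Wk8 and 0.29 to 0.69 in the Fischer lines. In these bulk samples fewer cells of a type and less RNA per cell cannot be told apart.

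Wk8 stood apart from both Fischer lines across the array. Over 22813 genes, which are not independent replicates and share arrays and probes, arrays of Wk8 correlated with those of Fi1 at 0.970 to 0.973 and with those of Fi2 at 0.970 to 0.973. Arrays of Fi1 and Fi2 correlated at 0.984 to 0.991, and arrays A and B of a line at 0.993 to 0.996. By correlation Fi2 lay closer to the bone marrow line CL19 (0.977 to 0.983) than to Wk8. Fi1 correlated with CL19 at 0.967 to 0.975, which overlaps its range with Wk8, and Wk8 with CL19 at 0.945 to 0.953. By the median absolute log2 difference Fi2 lay closer to Wk8 (0.28) than to CL19 (0.38), and so did Fi1 (0.26 against 0.42). Counted as line means more than 2-fold apart, Wk8 and Fi1 differed in 2523 genes, Wk8 and Fi2 in 2584, and Fi1 and Fi2 in 1093. By this count Fi2 lay slightly closer to CL19 (2483) than to Wk8, and Fi1 did not (3263). Probes were kept by their signal on blastocyst arrays alone. Within a line, arrays A and B were more than 2-fold apart for 700 genes in Wk8, 386 in Fi1 and 691 in Fi2.

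When arrays were taken as replicates, limma called 3635 genes between Wk8 and Fi1 (15.9% of those tested) and 4232 between Wk8 and Fi2 (18.6%), at a Benjamini-Hochberg adjusted p under 0.05. Between Fi1 and Fi2, fitted the same way, it called 116 (0.508%), of which 94 were higher in Fi1. With the array letter as a replicate block this count was 3, while the letters were not taken to pair the arrays. These calls say that 2 lines differ beyond the spread of their arrays, and the first 2 comparisons share the Wk8 arrays. Leaving out a single array took the Fi1 and Fi2 count down to between 3 and 15, so this count rests on all 4 arrays.

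The comparison of Wk8 with the Fischer lines as lines used the means of arrays A and B of the 6 stem cell lines, with the spread taken from within the Fischer and bone marrow groups. Because Wk8 is a single line, its own spread was assumed to equal theirs. Of 22813 genes, 311 passed (1.36%), 189 higher in Wk8 (0.828%) and 122 lower (0.535%). All 311 differed more than 2-fold, 151 had a gene symbol, and 3577 genes had an unadjusted p under 0.05. The count was 167 without 3C3, 360 without RMAPC-1, 121 without array A of RMAPC-1, 102 without CL19, 126 without Fi1 and 103 without Fi2. It was 339 from the A arrays alone and 77 from the B arrays alone, 193 without array A of Fi2, 491 without array B of Wk8, and 0 when only the blastocyst lines were fitted, which leaves 1 residual degree of freedom. The bone marrow lines do not enter the differences themselves. With only probes well above background on all 6 blastocyst arrays, 20337 genes were tested and 134 of the 311 were still called. For any called gene with blastocyst arrays near background, the SE and p-value rest in part on those values. Over 29 or 30 alternative settings, the 41 called genes named below lost their call in 1 to 21 (median 9) and none changed sign. Those that lost it in over 50% of the settings were Ackr3, Cfap144, Creg1, Muc13, Ramp2 and Ribc2. For these reasons each gene below is given by its arrays first.

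A second description used no model. Both Wk8 arrays lay above all 4 Fischer arrays, with a difference of over 2-fold, for 1228 genes (5.38%), and below all 4 for 838 (3.67%). Such genes are written below as standing apart, and the shares are the background for each gene list. Of the genes in that background 11745 have a symbol, whereas the lists name genes by symbol. The lists were also chosen with earlier results of these data known. A list share above the background was not tested and is a description only. Of the 311 called genes, 307 lay outside the range of the Fischer arrays, and 290 lay outside the range of the 6 bone marrow arrays as well, which is 93.2% against 24.3% of all genes tested. Read against CL19 as the sole bone marrow line, which leaves out 3C3 and RMAPC-1, these shares were 96.1% (299 genes) and 32.8%. The called genes were chosen from the same values for a large difference and a small spread within these lines. The contrast of shares thus follows in part from that choice and is not separate evidence. The 311 genes were spread over the genome, from 2.58% of genes tested on chromosome 4 (29 of 1125) to 0.325% on chromosome 19 (2 of 615), and X held 9 of 738. Of the called genes 27 had a further probe above background. Of those 30 further probes 24 moved the same way by over 2-fold (80%). The share was 69.9% for further probes of all genes that stood apart and 7.92% for those of all genes tested.

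**Figure D1:**
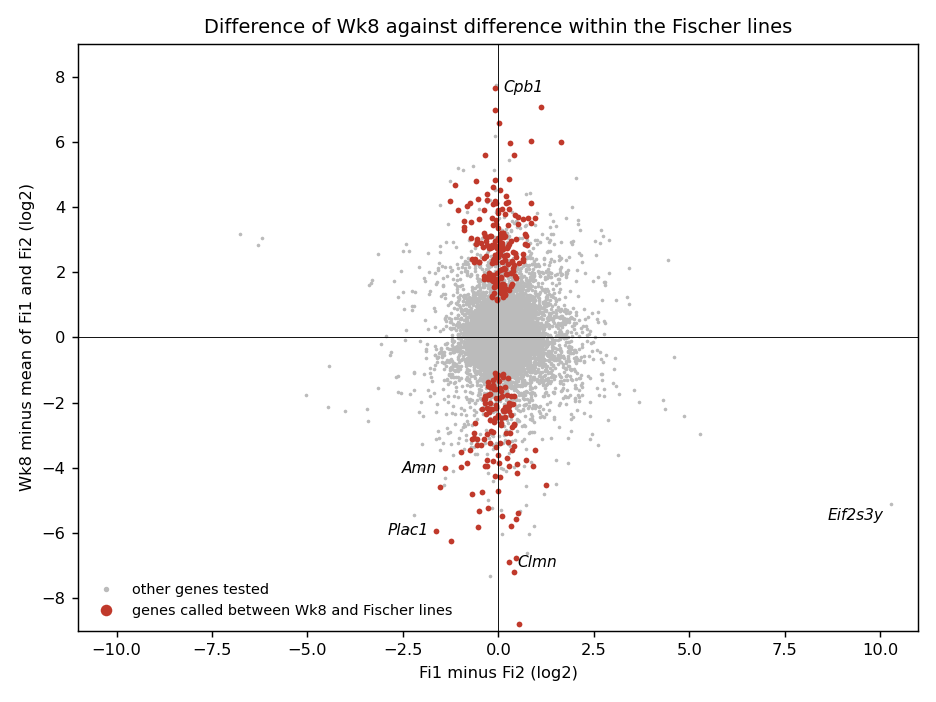
Each dot is 1 of 22813 genes. The x axis is the difference between the line means of Fi1 and Fi2 and the y axis the difference of Wk8 from the mean of Fi1 and Fi2, both on the log2 scale. The 311 called genes (red) mostly lie where the Fischer lines differ little and Wk8 differs by more than 1, and Eif2s3y, detected in the male line Fi1 and in neither of the other blastocyst lines, lies far to the right.

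The genes highest in Wk8 over the Fischer lines encode proteins of different kinds, and 7 of the 15 leading ones were not well above background on any Fischer blastocyst array. Those 7 passed the probe filter through Wk8 alone. Their standard errors and p-values rest in part on Fischer values near background and do not measure how expression varies between lines. The same holds for Col6a1, Hand2, Il1a and Mgst1 further on. Cpb1, which encodes the digestive protease carboxypeptidase B1, was measured by a probe at chr2:105413345-105413404 of the rn4 build. It read -0.64 and -0.97 in Wk8, -8.33 and -8.67 in Fi1 and -8.37 and -8.47 in Fi2. No Fischer array was well above background, so Wk8 was at least 50.7-fold higher (log2 difference 7.65 ± 0.15, SE, 1 line against 2, limma adjusted p = 0.000625). The bone marrow lines, at -8.07 to -8.00, and RClone-2, at -8.33, were at the same low level. The SE therefore measures a spread of values near background. Cpb1 thus separated Wk8 from every other array of the series.

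Mrps10, a protein of the small mitochondrial ribosome subunit, showed another form, a steady level in every Fischer line and a higher one in Wk8. It read 1.06 and 1.04 in Wk8 and -3.68 to -3.11 in the Fischer blastocyst arrays, a difference of 4.35 ± 0.17 or 20.4-fold (adjusted p = 0.00277). The bone marrow line means were -3.34 to -3.23, and RClone-2, also a Fischer line, lay close to them at -2.90. Both Wk8 arrays lay above every other array of the series.

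The leading genes Edn2, Wnt5a, Wfdc21 and Muc13 are described together by what they encode, with no test of that grouping. Edn2, the vasoactive peptide endothelin 2, read 0.21 and 1.07 in Wk8 against -4.56 to -3.27 on the Fischer arrays, 27.9-fold higher (limma adjusted p = 0.0441). The call of Edn2 was lost in 15 of 30 settings. Wnt5a, a ligand mainly of non-canonical WNT signalling, read -4.69 and -4.05 in Wk8 and was not well above background on any Fischer array (-8.70 to -8.19), so the difference was at least 4.28-fold. RClone-2 was far above both, at 2.30. Wfdc21, a secreted protein with a whey acidic protein domain, read 1.00 and 1.32 against -3.32 to -2.42, 17.4-fold higher. Muc13, a mucin of epithelial surfaces, read -2.93 and -1.93 in Wk8 and was well above background on 1 of 4 Fischer arrays, with values of -6.96 to -5.68. Its call was lost in 16 of 29 settings.

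Sult5a1, a sulfotransferase, read -0.51 and -0.55 in Wk8 against -6.14 to -4.42, 25.6-fold higher by value with 3 of 4 Fischer arrays well above background, while the bone marrow lines lay between at -3.26 to -2.57 and RClone-2 lay above Wk8 at -0.15. Neu4, a sialidase, and B3gat2, a glucuronyltransferase of glycan synthesis, were above background only in Wk8 among the blastocyst arrays and were at least 5.93-fold and 13.5-fold higher. Kcne3, an accessory subunit of potassium channels, was at least 7.03-fold higher. Neu4 differed widely between the Wk8 arrays, at -5.20 and -2.60.

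Sowaha, Cfap144, Ube2ql1 and Creg1 completed the set. Sowaha, an ankyrin repeat protein, read 0.57 and 0.42 against -5.97 to -4.94, a 65.2-fold difference with an adjusted p of 0.0167. Ube2ql1, a protein related to ubiquitin-conjugating enzymes, was at least 10-fold higher, with a difference of 4.87 from the probe used and 3.57 from a further probe. Cfap144, a cilium and flagellum associated protein, was at least 24.5-fold higher, and Creg1, a secreted glycoprotein, 15.5-fold. The calls of Cfap144 and Creg1 were lost in 16 of 29 and 18 of 30 settings. Across all 15 genes the Wk8 arrays lay above the bone marrow arrays too for 14, with Muc13 the exception, and above every other array of the series for 12. Muc13 was the exception through array B of RMAPC-1 alone, at -2.92 against -8.26 to -6.31 on the other bone marrow arrays, and against CL19 alone all 15 lay above.

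**Figure D2:**
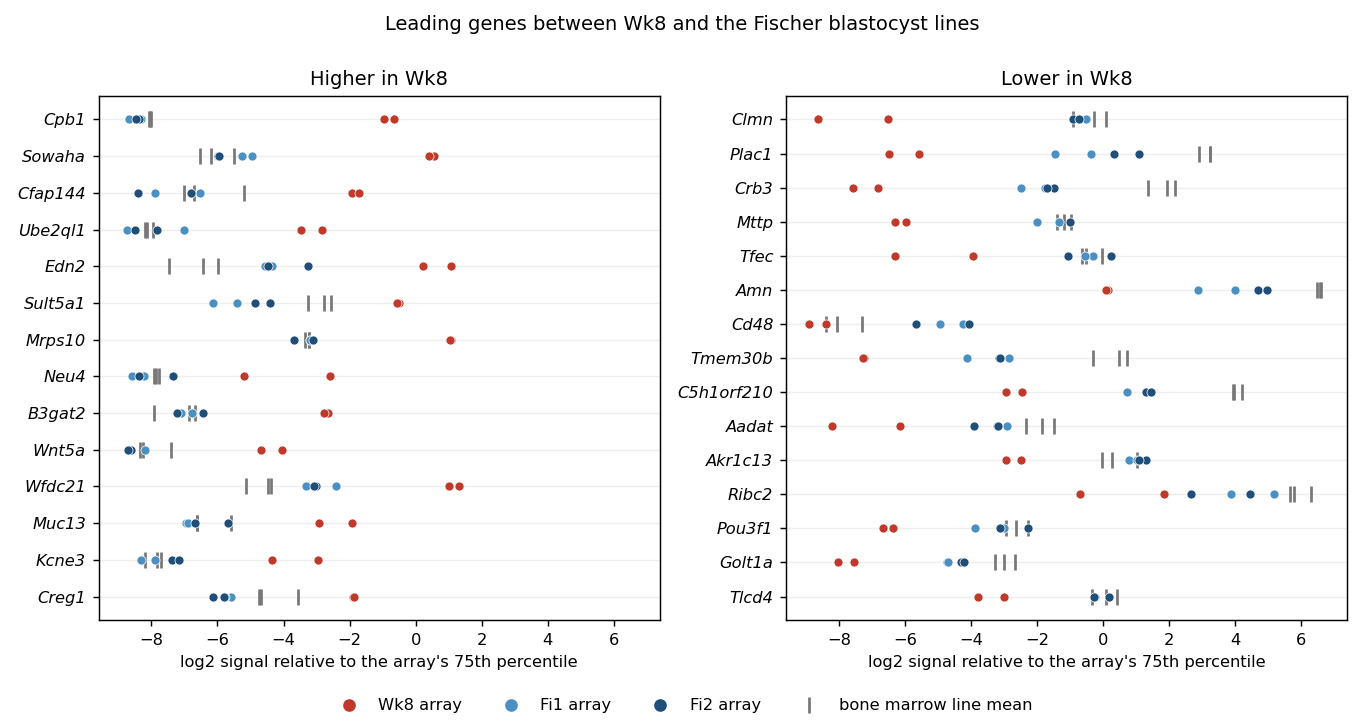
The x axis is the log2 signal relative to the 75th percentile of the array, and each row is a gene. Dots are single arrays of Wk8 (red), Fi1 (light blue) and Fi2 (dark blue), and grey ticks are the means of the 3 bone marrow lines. In the left panel the Wk8 arrays lie to the right of all Fischer dots, from Cpb1 (difference 7.65) to Creg1 (3.95), and in the right panel to the left, from Clmn (-6.89) to Tlcd4 (-3.25).

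Among the 15 leading genes lower in Wk8 were some for which the bone marrow lines lay above the Fischer blastocyst lines. Clmn, which encodes the membrane-anchored actin-binding protein calmin, read -0.92 to -0.53 on the Fischer arrays and -6.50 and -8.64 in Wk8, where it was not well above background. It was at least 52.4-fold lower (difference -6.89 ± 0.42, adjusted p = 0.00694). The bone marrow lines, at -0.90 to 0.10, were at the Fischer level. Clmn was lower in Wk8 than on any other array of the series.

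Plac1, an X-linked gene best known from trophoblast and placenta, read -1.45 and -0.38 in Fi1, 1.10 and 0.33 in Fi2 and -6.49 and -5.56 in Wk8. It was well above background on 1 of 2 Wk8 arrays, so the fitted 60.9-fold difference (-5.93 ± 0.65, adjusted p = 0.0284) rests in part on a value near background. Crb3, which encodes the crumbs protein of the apical polarity complex in simple epithelia, read -2.48 to -1.50 in the Fischer lines and -6.83 and -7.58 in Wk8, at least 23-fold lower with an adjusted p of 0.0102. Both genes had the order bone marrow, Fischer, Wk8, in CL19 as in 3C3 and RMAPC-1. The bone marrow line means were 2.90 to 3.24 for Plac1 and 1.37 to 2.18 for Crb3. C5h1orf210 and Tmem30b, membrane proteins, had this order too. C5h1orf210 read 0.73 to 1.45 on the Fischer arrays, -2.46 and -2.95 in Wk8, and 3.92 to 4.22 in the bone marrow line means.

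Mttp, Aadat and Akr1c13 act in metabolism. Mttp, the microsomal triglyceride transfer protein that loads lipid onto apolipoprotein B, read -6.31 and -5.97 in Wk8 and -2.01, -1.33 and -0.99 on 3 Fischer arrays. Its spot on array A of Fi2 was dropped as an outlier. The difference was -4.81 ± 0.33, 28.1-fold by value, with an adjusted p of 0.00903. Aadat, an aminotransferase of the kynurenine and lysine pathways, was 14.7-fold lower by value. Mttp and Aadat were each well above background on 1 of 2 Wk8 arrays. Akr1c13, an aldo-keto reductase, was 13.6-fold lower, with -2.93 and -2.50 in Wk8 against 0.77 to 1.30. For these 3 genes the Wk8 arrays lay below both the Fischer and the bone marrow arrays.

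Transcription factors among the lower genes were Tfec and Pou3f1. Tfec, a factor of the Mitf family, read -1.06 to 0.23 on the Fischer arrays and -6.31 and -3.94 in Wk8, 26-fold lower by value with 1 of 2 Wk8 arrays well above background. Pou3f1, a POU domain factor also called Oct6, was not well above background in Wk8 and was at least 9.05-fold lower. Ribc2, a ciliary microtubule protein, was 11-fold lower, but its Wk8 arrays differed by more than its distance to the nearest Fischer array: they read -0.69 and 1.84, and array B of Fi2 read 2.66. Its call was lost in 21 of 30 settings. Cd48, an immunoglobulin superfamily protein of blood cells, read -5.67 to -4.05 in the Fischer blastocyst lines and was at background in Wk8, with the bone marrow lines low as well at -8.40 to -7.29.

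Golt1a, a Golgi transport protein, was at least 3.73-fold lower, Tmem30b at least 8.45-fold and Tlcd4 9.53-fold. A further probe gave -3.22 for Tlcd4, close to the -3.25 of the probe used, whereas a further probe of Tmem30b was not above background anywhere. Of the 15 lower genes, 14 lay outside the bone marrow arrays too, with Cd48 the exception, also against CL19 alone, and 2, Clmn and Plac1, lay below every other array of the series. Cd48 was highest in RClone-2, at 1.54.

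The transcription factors that define primitive endoderm were at similar levels in the 3 lines. Of 16 key hypoblast genes, 1 was called, Foxq1, and 5, Foxq1 among them, stood apart below the Fischer arrays (31.2%, against 3.67% of all genes). None stood apart above. Gata4, a zinc finger factor that drives endoderm fate, read 4.76 and 4.69 in Wk8 and 4.85 to 4.93 in the Fischer lines (difference -0.17 ± 0.19). Gata6, which acts at the start of this lineage, read 4.58 and 4.42 against 4.26 to 4.63 (0.03 ± 0.20), and its sign depended on scaling. Foxa2, a forkhead factor, gave -0.27 ± 0.20, Sox7, a SOX factor, -0.40 ± 0.29, and Pdgfra, a growth factor receptor of the lineage, 0.12 ± 0.18. Each of these 5 differences was smaller than 2 standard errors. Sox17 read 4.54 and 3.49 in Wk8 and 3.18 to 3.41 in the Fischer lines (0.77 ± 0.17, adjusted p = 0.125).

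Foxq1, a forkhead factor, read -2.64 and -1.64 in Wk8, 0.92 and 0.66 in Fi1 and 0.75 and 0.11 in Fi2. It was 6.71-fold lower (difference -2.75 ± 0.21, adjusted p = 0.0104) and the bone marrow lines were higher still, at 2.84 to 2.96. Cdh1, the epithelial cadherin, read -0.61 and -0.68 in Wk8, 1.56 and 1.69 in Fi1 and 0.59 and 0.71 in Fi2 (difference -1.78 ± 0.41, adjusted p = 0.128). Epcam, an epithelial adhesion molecule, gave -1.14 ± 0.18 (adjusted p = 0.0636) and Cited1, a transcriptional co-activator, -1.43 ± 0.29 (0.103). These 3 did not pass the test, although their arrays did not overlap.

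Of the other key genes, Lama1, the laminin chain of parietal endoderm, read 8.03 and 8.13 in Wk8 and 7.60 to 7.81 in the Fischer lines (0.38 ± 0.29). Pou5f1, the POU factor that these cells share with pluripotent cells, read -0.32 and -0.67 against -0.61 to 1.14, and the arrays overlapped. Afp, alpha-fetoprotein, read -2.75 and -2.54 in Wk8, -3.58 and -2.68 in Fi1 and -5.31 and -4.69 in Fi2. Ttr, a serum carrier of thyroid hormone and retinol, and Hnf4a, a hepatocyte nuclear factor, gave differences of -0.39 ± 0.70 and -0.03 ± 0.18 with overlapping arrays. A further probe of Hnf4a gave -1.43, so its probes disagree.

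Visceral endoderm genes included the uptake receptors whose upstream sequences are printed above, and these lay below the Fischer lines together. Of 23 measured members, 1 was called, Amn, and 8 stood apart below the Fischer arrays (34.8%), while 1 stood apart above. The median difference over the list was -0.39, against 0.01 over all genes. Amn, read by a probe at chr6:136038513-136038572 of rn4, was at 0.15 and 0.09 in Wk8, and between 2.86 and 4.97 on the Fischer arrays, lower in Fi1 than in Fi2. It was 16.1-fold lower (difference -4.01 ± 0.55, adjusted p = 0.0468), and the bone marrow lines lay above all of these at 6.49 to 6.61. The call was lost in 13 of 30 settings, over which the difference was -4.71 to -3.31.

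The partners of amnionless pointed the same way without passing the test. Cubn read 1.75 and 2.48 in Wk8 and 3.96 to 4.56 on the Fischer arrays (difference -2.11 ± 0.44, adjusted p = 0.11). Lrp2 read -1.66 and -2.37 against 0.06 to 1.05 (-2.70 ± 0.53, adjusted p = 0.0964). Dab2, the endocytic adaptor, read 0.84 and 0.79 against 2.07 to 2.74 (-1.56 ± 0.35, adjusted p = 0.126). For all 4 genes the arrays of the groups did not overlap and the bone marrow means lay above the Fischer means. Ihh, the hedgehog ligand of visceral endoderm, read -0.40 and -0.45 in Wk8, 1.63 and 2.55 in Fi1 and 3.34 and 3.71 in Fi2 (-3.23 ± 0.60, adjusted p = 0.0868), and its 3 further probes gave -2.97 to -2.80. The member that stood apart above was Cyp26a1, the retinoic acid hydroxylase, chosen for mention after its values were seen. It read 6.28 and 6.58 against 3.99 to 4.20 (2.34 ± 0.80, adjusted p = 0.259).

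**Figure D3:**
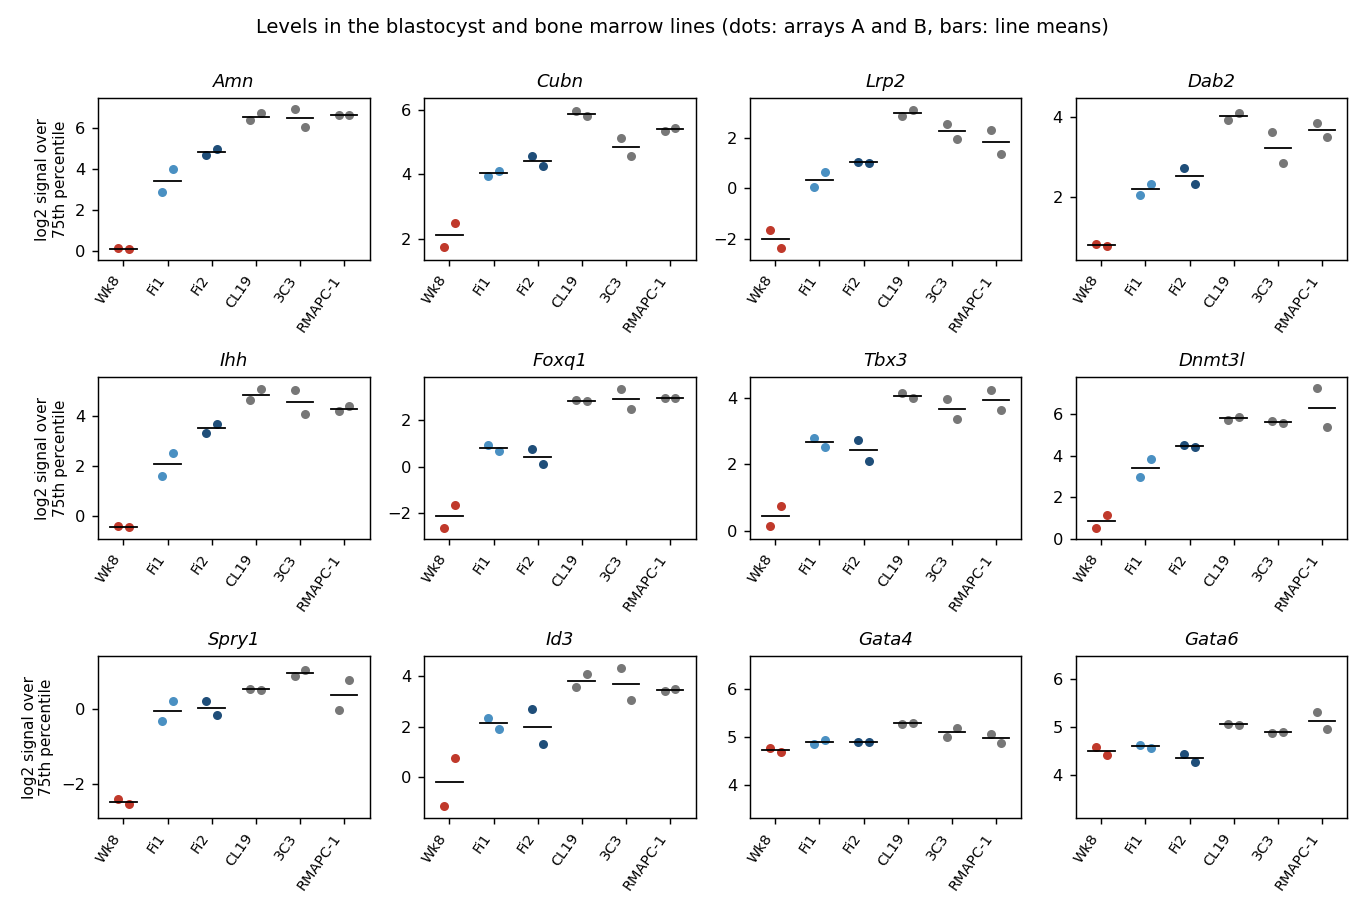
Each panel is a gene, with the lines on the x axis and the log2 signal relative to the 75th percentile of the array on the y axis, on a scale of its own. Dots are arrays A and B and bars are line means. In the first 10 panels, from Amn to Id3, the line mean of Wk8 is the lowest of the 6 lines, while Gata4 (difference -0.17) and Gata6 (0.03) are nearly level.

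Parietal endoderm genes stood apart in both directions. None of 22 measured members was called, 4 stood apart above the Fischer arrays (18.2% against 5.38%) and 2 below (9.09% against 3.67%), and the median difference was 0.33. Nid1, the basement membrane linker nidogen 1, read 5.08 and 5.39 in Wk8 and 3.57 to 4.47 in the Fischer lines (1.24 ± 0.46, adjusted p = 0.296), and its further probes gave 1.05 and 1.22. Stra6, a receptor for retinol binding protein, gave 1.29 ± 0.45. Cryab, the small heat shock protein alpha-B crystallin, gave 2.14 ± 1.15, but it differed between the bone marrow lines by more than that, from 0.69 to 3.60. Pga5, a pepsinogen, read 1.83 and 2.97 in Wk8 against 3.50 to 4.80 (-1.72 ± 0.76).

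Epithelial and mesenchymal lists showed few calls. Of 24 epithelial genes, 1 was called, Crb3, and 4 stood apart below (16.7%), with none above. Cldn6, a tight junction claudin of early epithelia, read -4.82 and -4.49 in Wk8 against -3.48 to -2.14 (4-fold by value, adjusted p = 0.0722). Of 17 mesenchymal genes, 3 stood apart above (17.6%) and 2 below (11.8%), and 2 were called, both encoding chains of type VI collagen. Col6a2 read -2.27 and -2.25 in Wk8 and -4.77 to -4.43 in the Fischer lines, 4.83-fold higher (2.27 ± 0.21, adjusted p = 0.0196). Col6a1 was not well above background in the Fischer lines and was at least 6.72-fold higher (adjusted p = 0.018). Both lay far below RClone-2, at 6.46 for Col6a1 and 3.25 for Col6a2. Col5a1, a fibrillar collagen chain, went the other way, at -1.05 and -0.91 against 1.10 to 1.51 (-2.29 ± 0.39, adjusted p = 0.0725), and a further probe gave -3.05.

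The measured genes listed for pluripotency and germline, and those of de novo DNA methylation, were mostly lower in Wk8 by value. Of 30 pluripotency and germline genes named, 15 were measured, and Nanog, Sox2, Zfp42 and Esrrb were not among them. Of 15 measured pluripotency and germline genes, 1 was called, Tbx3, and 5 stood apart below (33.3%), with a median of -0.65. Tbx3, a T-box factor, read 0.14 and 0.74 in Wk8 and 2.11 to 2.81 in the Fischer lines, 4.33-fold lower (-2.11 ± 0.24, adjusted p = 0.0296). Dnmt3l, the catalytically inactive partner of the de novo methyltransferases, read 0.52 and 1.17 in Wk8, 2.97 and 3.86 in Fi1 and 4.51 and 4.40 in Fi2 (-3.09 ± 0.50, adjusted p = 0.0657). The enzymes Dnmt3a and Dnmt3b gave -1.46 ± 0.31 and -1.04 ± 0.28, and all 3 stood apart among 8 DNA methylation genes (37.5%), none of them called. Dnmt3l and Dnmt3b are counted in both lists. Tfap2c, an AP-2 factor of trophoblast and germ cells, gave -1.56 ± 0.62.

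Among imprinted genes, none of 17 was called, and the median difference was 0.51, above the 0.01 of all genes. Snrpn, which encodes a splicing protein, and Sgce, a sarcoglycan, gave 0.82 ± 0.60 and 0.82 ± 0.33, with Wk8 arrays above the Fischer arrays. They are named after their values were seen. H19, a maternally expressed non-coding RNA, read 0.16 and 1.85 in Wk8 and 2.76 to 4.25 in the Fischer lines (-2.76 ± 0.41, adjusted p = 0.0563). Igf2, its paternally expressed neighbour, read -3.22 and -2.86 against -2.50 to -0.44 (-1.62 ± 1.10, adjusted p = 0.574), where the spread between lines was wide. These 2 were the members that stood apart below (11.8%), and none stood apart above.

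Genes of fibroblast growth factor signalling and its ERK feedback were lower in Wk8 by value as well. Of 20 measured members, 1 was called, Spry1, 6 stood apart below (30%), and none stood apart above. The median difference was -0.65. Spry1, a Sprouty protein that restrains receptor signalling and is itself induced by it, read -2.40 and -2.54 in Wk8 and -0.32 to 0.22 in the Fischer lines, 5.51-fold lower (-2.46 ± 0.28, adjusted p = 0.0297). Spry4 read -6.47 and -3.70 against -3.12 to -2.20 (-2.53 ± 0.42, adjusted p = 0.0696), with 1 of 2 Wk8 arrays well above background and a further probe at -1.53. Etv5, an ETS factor induced by the pathway, gave -1.85 ± 0.57 and -1.65 with a further probe. The receptor Fgfr2 gave -4.03 ± 0.85 (adjusted p = 0.111) by its brightest probe, on which it was not well above background in Wk8, but its other probes gave -0.86, -0.82 and 0.14.

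**Figure D4:**
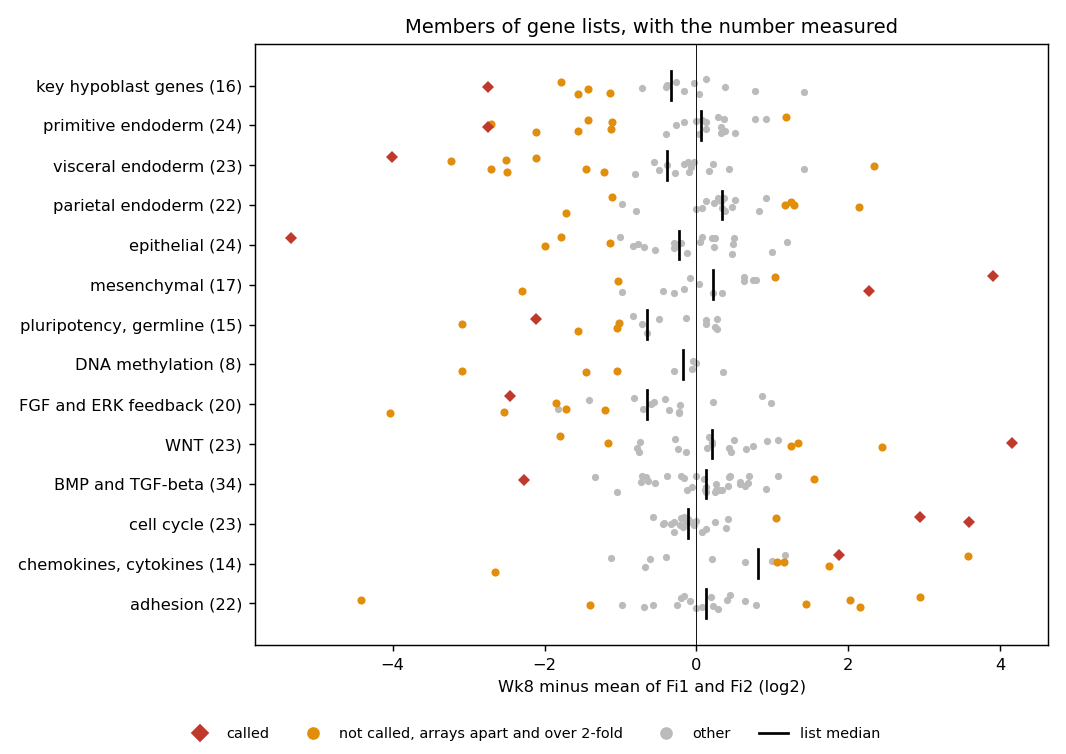
Each symbol is a measured member of a gene list, and the number of members stands in brackets. The x axis is the difference of Wk8 from the mean of Fi1 and Fi2 on the log2 scale. Red diamonds were called, orange dots were not called but had Wk8 arrays outside the Fischer arrays and a difference over 2-fold, and black bars are list medians, which run from -0.65 for the FGF and the pluripotency lists to 0.82 for chemokines and cytokines.

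Other signalling lists held single calls. Of 34 BMP and TGF-beta genes 1 stood apart above and 1 below (2.94% each, against 5.38% and 3.67% of all genes). The 1 called member was Id3, an inhibitor of basic helix-loop-helix factors and a common target of BMP signalling. It read -1.15 and 0.77 in Wk8 and 1.31 to 2.72 in the Fischer lines, 4.83-fold lower (-2.27 ± 0.21, adjusted p = 0.0193), and 2 further probes each gave -2.33. Its arrays A and B differed by more than 1 in both Wk8 and Fi2, a spread that the SE, taken from line means, does not measure. The call of Id3 was lost in 12 of 30 settings, over which the difference was -3.69 to -0.85. The ligand Bmp4 read -2.35 and -2.96 in Wk8 against -4.60 to -3.59 (1.55 ± 0.73, adjusted p = 0.403). Of 23 WNT genes 1 was called, Wnt5a, and 4 stood apart above (17.4%) and 2 below (8.7%). Dkk3, a secreted Dickkopf family protein, read 2.00 and 1.40 in Wk8 and -1.46 to -0.06 in the Fischer lines (2.45 ± 0.38, adjusted p = 0.0627). The antagonist Sfrp1 gave -1.80 ± 0.73 and the ligand Wnt4 1.34 ± 0.46.

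Cell cycle genes included the D-type cyclin and kinase that act at the entry into S phase. Of 23 measured, 2 were called, Cdk6 and Ccnd2, both higher in Wk8, and 3 stood apart above (13%). Cdk6 read -2.51 and -2.16 in Wk8 and -6.30 to -5.51 in the Fischer lines, with the bone marrow lines near background at -8.12 to -7.86. It was well above background on 2 of 4 Fischer arrays and 12.1-fold higher by value (3.59 ± 0.18, adjusted p = 0.0036). Its SE rests in part on values near background. With normexp background correction the difference was 1.00 and was not called. Ccnd2, cyclin D2, read -1.17 and -1.38 against -4.98 to -3.13, 7.7-fold higher (adjusted p = 0.0156). Ccnd1, cyclin D1, read 4.68 and 4.88 against 3.62 to 3.90 (1.05 ± 0.35, adjusted p = 0.25). The median of the list was -0.11. The cell cycle inhibitor Cdkn1a gave 1.24 ± 0.65 and Perp, a p53 target of cell junctions, 1.36 ± 0.29, neither called.

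Chemokine and cytokine genes had the highest list median of those plotted, 0.82 over 14 members. Ackr3, a scavenging receptor for the chemokine CXCL12, was the called member. It read 0.39 and 0.30 in Wk8 and -1.93 to -1.09 in the Fischer lines, 3.68-fold higher (1.88 ± 0.25, adjusted p = 0.0463), and its call was lost in 20 of 30 settings. Of the members 5 stood apart above (35.7%) and 1 below (7.14%). Csf1, the macrophage growth factor, gave 1.75 ± 0.35 with 1.79 from a further probe. Il1a was at least 5.13-fold higher, since no Fischer array was well above background, with a fitted difference of 3.57 ± 0.61 (adjusted p = 0.0733). Il33, a nuclear cytokine, was the member below, at -4.02 and -4.07 against -2.36 to -0.64 (-2.65 ± 0.59).

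Adhesion and immune genes differed widely in value with no call in these lists. Among 22 adhesion genes 4 stood apart above (18.2%) and 2 below (9.09%). Cd47, the ligand that restrains phagocytosis, read -6.52 and -6.54 in Wk8 and -2.28 to -1.86 in the Fischer lines (-4.42 ± 0.66, adjusted p = 0.0564), with 1 of 2 Wk8 arrays well above background, and a further probe gave -3.07. Cd44, the hyaluronan receptor, read 0.51 and 0.46 against -1.93 to -1.26 (2.02 ± 0.30, adjusted p = 0.0542). Pcdh1, a protocadherin well above background on 2 of 4 Fischer arrays, gave 2.94 ± 0.63 and the integrin chain Itga4 2.15 ± 0.97. Ifi44, an interferon-induced gene, read -4.77 and -3.30 in Wk8 and 0.10 to 1.40 in the Fischer lines (-4.80 ± 0.95, adjusted p = 0.097), with -4.73 and -4.48 from further probes. Only 3 of 24 interferon response genes stood apart, 1 above and 2 below (4.17% and 8.33%), with a median of -0.34. Cd74, the invariant chain of MHC class II, gave 2.53 ± 0.67 (adjusted p = 0.166), with 1 of 4 Fischer arrays well above background.

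Detoxification, mesoderm and endothelial genes gave 1 call each. Of 38 detoxification genes 3 stood apart above (7.89%) and 5 below (13.2%). Of 6 mesoderm genes 2 stood apart above (33.3%) and none below. Of 17 endothelial genes 2 stood apart above (11.8%) and 3 below (17.6%). Abcg2, an efflux transporter, was the called member among 38 glutathione and xenobiotic genes and is named after its values were seen. It read -0.28 and -0.46 in Wk8 and 1.12 to 1.79 in the Fischer lines, 3.45-fold lower (adjusted p = 0.0369), with the bone marrow lines at 1.45 to 1.62, and its call was lost in 15 of 30 settings. Gstt2, a glutathione transferase, gave -2.71 ± 0.42 (adjusted p = 0.0625) with 1 of 2 Wk8 arrays well above background, and Mgst1, a membrane-bound one, was at least 3.23-fold higher by value without passing. Hand2, a basic helix-loop-helix factor of heart and limb mesoderm, was called among 6 mesoderm genes. It read -4.03 and -4.12 in Wk8, was not well above background in the Fischer lines and was at least 5.26-fold higher (adjusted p = 0.018). A further probe gave -1.24, so its probes disagree. That probe was not above background in Wk8 and was well above it on 1 Fischer array. Ramp2, a receptor partner for adrenomedullin, was called among 17 endothelial genes, at -2.63 and -2.39 against -1.54 to -1.08 (-1.26 ± 0.17, adjusted p = 0.0463), and its call was lost in 19 of 30 settings. Pecam1, an adhesion molecule of endothelium, gave 1.59 ± 0.42 and Adgrl4, an endothelial adhesion receptor, -2.49 ± 0.53.

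Of 6 measured sex chromosome genes none was called. Eif2s3y gave a fitted difference of -5.10 ± 4.61 and Ddx3y -2.95 ± 2.43, since Fi1 is male and Fi2 and Wk8 are female. The X-linked Eif2s3, Usp9x and Ddx3x gave 0.18, -0.13 and 0.08. Uty, whose probe was positive in female lines too, gave 0.25. When sex was added as a covariate to the line fit, 104 genes were called in all. The sex labels of 3C3 and of array A of RMAPC-1 go against their Y-linked signals, and that fit uses those labels.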

How the data were processed

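Total RNA (1 µg, with 10 spiked-in transcripts) was labelled with Cy3 for 1-colour Agilent rat arrays, per the labels' protocols. Per the file headers the authors read the arrays with Agilent Feature Extraction 10.7.3.1. The deposited scanner files give a processed intensity, a mean intensity and a background intensity per spot, without scaling across arrays. Their deposited 0 or 1 flags are other values, used to find dim and outlier spots. A deposited series table gives log2 values. Sorted within an array, these matched log2 of the processed intensity with a difference of 0.

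The log2 processed intensity of 43379 non-control spots per array was centred on the array's 75th percentile, without the 100 to 193 outlier spots of each blastocyst array, and averaged by probe. Kept were 26978 probes well above background on arrays A and B of any blastocyst line. A gene was represented by its brightest probe, giving 22813 genes, 11745 with a symbol. RefSeq's GRCr8 table supplied names for 16968 probes by accession, 2956 by symbol and 652 by synonym, and 20436 kept the name in the file. Probe positions are those of the files (rn4), and strain sequence under the probes was not analysed here. For a fold written "at least", arrays of the dimmer group below the lowest signal called above background were raised to that signal. Such a bound holds for the main scaling and background treatment alone. Over the alternatives the log2 difference shrank to 0.04 for Hand2, 0.18 for Wnt5a and for Il1a, and 0.33 for Neu4. It shrank to 2.48 for Cpb1 and to -3.08 for Clmn.

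limma 3.58.1 (R 4.3.3; lmFit, eBayes) was run on the means of the 6 stem cell lines with 3 residual degrees of freedom, and on the 6 blastocyst arrays for pairs of lines, with Benjamini-Hochberg adjustment over all genes and a threshold of 0.05. SE is the moderated standard error over line means, so it does not measure the spread between arrays A and B of a line. Both fits were tested on simulated data. The letters A and B coincide with slides. Deviations of same-lettered arrays correlated at -0.12 (Wk8 and Fi1), -0.06 (Wk8 and Fi2) and 0.22 (Fi1 and Fi2), so they were not treated as pairs. Named genes were, in each direction, the 15 with the largest difference among called genes that had a symbol and both Wk8 arrays outside the Fischer arrays, all key hypoblast and sex chromosome genes, and up to 4 members of any other list, largest first. A leading gene higher in Wk8 is not reported here, but is in the counts. The members and lists were chosen with earlier results of these data known. Alternatives covered scaling, background correction, filters, probe choice, blocks, covariates and left-out arrays or lines. The fits without array A or B of RMAPC-1 and the reading against CL19 alone were chosen after seeing the data. Figures were drawn with matplotlib 3.10.9.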

Additional observations from a re-analysis of the deposited data

Results flagged for a closer look

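The 4 Fischer arrays were examined for the 103 genes named in the text, except Mttp, which lacked the value of array A of Fi2. In 6 genes an array's distance to its nearest neighbour took up more of the whole range than Dixon's critical value allows. Chance gives this in about 1 group in 20 if values are independent. Arrays of the same line are not, so that rate need not hold here. The shares were 0.953 for Tlcd4 (array A of Fi2 at 0.19, next -0.24), 0.915 for Gstt2 (array A of Fi2 at -3.04, next -2.74), 0.894 for Col6a2 (array B of Fi1 at -4.77, next -4.47), 0.851 for Sox17 (array B of Fi1 at 3.41, next 3.21), 0.846 for Edn2 (array B of Fi2 at -3.27, next -4.36) and 0.835 for Mrps10 (array B of Fi2 at -3.68, next -3.21). In 5 of these genes the distance was under 0.5 on the log2 scale, and in Edn2 the Wk8 arrays, at 0.21 and 1.07, were still the highest.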

How the results depend on the processing

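The direction of all 30 leading genes was kept under every alternative in which they were measured, 11 of them where only probes above background on all blastocyst arrays were used. Between 0 (blastocyst lines alone, 3495 genes at an unadjusted p under 0.05) and 30 of them passed. The 311 calls between Wk8 and the Fischer lines became 53 with normexp background correction, 482 without a filter on dim probes, 134 with probes above background on all blastocyst arrays and 134 tested against a fold of 1.5. The smaller filter tests fewer genes. Arrays as replicates gave 4724 calls, with a replicate block 3794, with line as random block 2268. Sex as a covariate gave 104, and the B arrays alone 77. Leaving out a line gave 126 (Fi1), 103 (Fi2), 102 (CL19) and 167 (3C3), and leaving out an array 121 to 491. Scaling on spiked-in transcripts moved the median of all genes to -0.34 and the share of calls higher in Wk8 from 60.8% to 38.2% (129 of 338), normexp moved them to -0.19 and 50.9%, and no filter the share to 78.8%. The cause of these changes was not tested.

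For Wk8 and Fi1 over arrays (3635), normexp gave 0 calls (1508 at an unadjusted p under 0.05), no filter 1569, a fold of 1.5 gave 928, and leaving out an array 1096 to 2312. For Wk8 and Fi2 (4232), spike-in scaling gave 2066, normexp 0 (2043 unadjusted), no filter 1894, a fold of 1.5 gave 1067, the 4 arrays alone 2538, and leaving out an array 2126 to 2536. For Fi1 and Fi2 (116), these were 185 without scaling, 771 with spike-in scaling, 0 with normexp (545 unadjusted), 3 without a filter, 188 with probes above background on all arrays, 14 for a fold of 1.5, 24 with the 4 arrays alone, 3 to 15 without an array and 3 with the replicate block, which left the other pairs at 2723 and 3273.

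Signs turned for Ddx3x (spike-in -0.26, mean of probes -0.23, without Fi1 -0.01), Eif2s3 (spike-in -0.16, sex covariate -0.01, without Fi1 -0.19), Eif2s3y (without Fi1 0.04), Uty (spike-in -0.10, sex covariate -0.03, without Fi1 -0.05), Usp9x (mean of probes 0.02), Fgfr2 (probes above background on all arrays 0.14), Mgst1 (normexp -0.04), Gata6 (no scaling -0.03, spike-in -0.32, mean of probes -0.04, without Fi2 -0.10, without array B of Fi2 -0.02, without a single array -0.05 to 0.11), Hnf4a (without array A of Wk8 0.13, without array B of Fi2 0.05, B arrays alone 0.06), Pdgfra (spike-in -0.23, without a single array -0.11 to 0.34, B arrays alone -0.23) and Ttr (without Fi1 0.43, without a single array -1.13 to 0.36, B arrays alone 0.80). None of these was called in the fit reported. The deposited series table was not run as an alternative, because its rows could not be matched to probes. Probes near background have only bounds, which limits what signal over background can show.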
